A study of Mus musculus with 18 samples.

Results

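Glucose uptake, glycolysis, lactate handling and the pentose phosphate pathway were followed through 31 genes, listed by name for their textbook enzymes and transporters. All 31 were found by NCBI gene ID among the 16545 genes of the table. The cells were splenic B cells of mice, sorted from an enriched B cell fraction per the study's methods and cultured with lipopolysaccharide (LPS), a bacterial cell wall component that drives B cells into growth and division. The knockout mice (B-CKO) carried a Cre allele active in the B lineage and *Zbtb24* loxp/loxp, so that the *Zbtb24* exon with the translation start is removed in B cells. *Zbtb24* encodes a zinc finger protein whose loss causes an immunodeficiency in people. Controls were littermates with the same Cre allele and *Zbtb24*+/+, so both groups express Cre, on a C57BL/6 background. RNA was sequenced at 0 h, 24 h and 48 h (days 0, 1 and 2 in the labels), with 3 libraries for each genotype and time, 18 in all, numbered 1 to 3 in each group. The labels do not state that a number stands for one mouse at all times. Age and sex of these mice and the LPS dose were not given in the sources used here. The study's methods give each replicate of splenic B cells as a separate mouse, so the p-values measure the spread between mice as cultured and sequenced here.

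Glycolysis splits glucose into pyruvate and gives ATP, and fermenting cells then reduce the pyruvate to lactate and export it. The pentose phosphate pathway branches off at glucose 6-phosphate: its oxidative arm makes NADPH for lipid synthesis and redox defence, and its non-oxidative arm exchanges sugars between ribose 5-phosphate, needed for nucleotides, and glycolysis. Resting B cells use little glucose, whereas B cells activated through Toll-like receptors enlarge, divide and take up more of it. Several glycolytic genes are known targets of MYC and of the hypoxia-inducible factor HIF1.

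Values are FPKM, fragments mapped to a gene divided by its transcript length and by the library's mapped fragments, so levels can be compared between genes. They are shares of the RNA in a library and not amounts per cell. FPKM summed to between 453149.5 and 563456.5 per library, and the depth in fragments is unknown. The sum rose with time, with means of 463408, 520147 and 535924 in control cells at 0, 24 and 48 h. In B-CKO cells the means were 467608, 524713 and 545148. *Zbtb24* checked the labels, at 45.4 ± 7.24 FPKM (SD, n = 3) in control and 12.5 ± 1.90 in B-CKO cells at 0 h, and the exons left in place can still be counted. The gap was smaller after LPS, 17.6 ± 1.66 against 10.9 ± 0.677 FPKM at 24 h and 15.2 ± 1.85 against 10.4 ± 1.07 at 48 h, without overlap at any time. Of 9 B cell markers none was at 0 throughout a group, and their sum fell from 4852 to 6137 FPKM in control cells at 0 h to 2536 to 2726 at 24 h. T cell markers summed to 24.3 to 33.1 FPKM in control cells at 0 h and 12.5 to 14.9 at 24 h, and myeloid markers to at most 16.7 FPKM in any library, with *Elane* at 0 in all 3 control libraries at each time. The genotypes did not overlap in some of these sums: B cell markers at 24 h were at 2201 to 2289.8 FPKM in B-CKO cells, and T cell markers at 9.05 to 10.1 at 48 h, against 12.8 to 13.3 in control cells at 48 h. Erythroid and platelet markers reached 71.9 FPKM in a B-CKO library at 0 h against at most 16.4 at 48 h. The part of these cells in the changes below was not tested, and fewer cells of a type and less RNA per cell cannot be told apart in such bulk libraries. Control replicates had a median SD (log2) of 0.169 before LPS and of 0.056 at 24 h, so smaller differences could be called at 24 h than at 0 h.

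The 31 genes rose from 0.441% ± 0.0124 of the summed FPKM in control cells at 0 h to 1.17% ± 0.0436 at 24 h and 3.27% ± 0.188 at 48 h (SD, n = 3). In B-CKO cells the corresponding shares were 0.441% ± 0.0198, 1.21% ± 0.0244 and 3.45% ± 0.0706. Most of it came from 6 genes, *Gapdh*, *Aldoa*, *Pkm*, *Ldha*, *Eno1* and *Pgk1*, which made up 2.59% ± 0.147 of the sum in control cells at 48 h. In B-CKO cells at 48 h they made up 2.75% ± 0.0497. For these 6 genes the libraries did not overlap, at 2.705% to 2.80% in B-CKO and 2.42% to 2.69% in control cells. The share of all 31 genes at 48 h did overlap, at 3.38% to 3.52% in B-CKO and 3.06% to 3.39% in control cells. Neither difference was tested. *Gapdh* stood at rank 141 of all genes by mean FPKM in control cells at 0 h, at rank 41 at 24 h and at rank 2 at 48 h. None of the 31 genes was among the 100 most abundant at 0 h, 1 was at 24 h and 7 were at 48 h, in both genotypes.

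Each comparison was fitted with limma on log2(FPKM + 1) over all genes above 0, with p-values adjusted by the Benjamini-Hochberg method and 0.05 as the threshold; on this scale changes of genes near 1 FPKM are understated. In control cells 23 of the 31 genes rose and 6 fell from 0 h to 24 h, while 26.7% of all 15531 genes tested rose and 30.7% fell. From 24 h to 48 h 25 rose and 2 fell, against 20.1% and 24.8% of all genes. Over the whole time from 0 h to 48 h 25 rose and 3 fell, against 26.5% and 30.3%. B-CKO cells gave 23 rises and 5 falls in the first interval (27.5% and 32.3% of all genes), 23 and 2 in the second (21.7% and 24%), and 25 and 3 over the whole time (27.0% and 30.7%). The median log2 difference of the 31 genes in control cells was 0.84 in the first and 1.02 in the second interval, where the median of all genes was -0.02 and -0.0047. The comparisons with 0 h and with 48 h share the libraries at 24 h, so the intervals are not independent of each other.

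**Figure D1:**
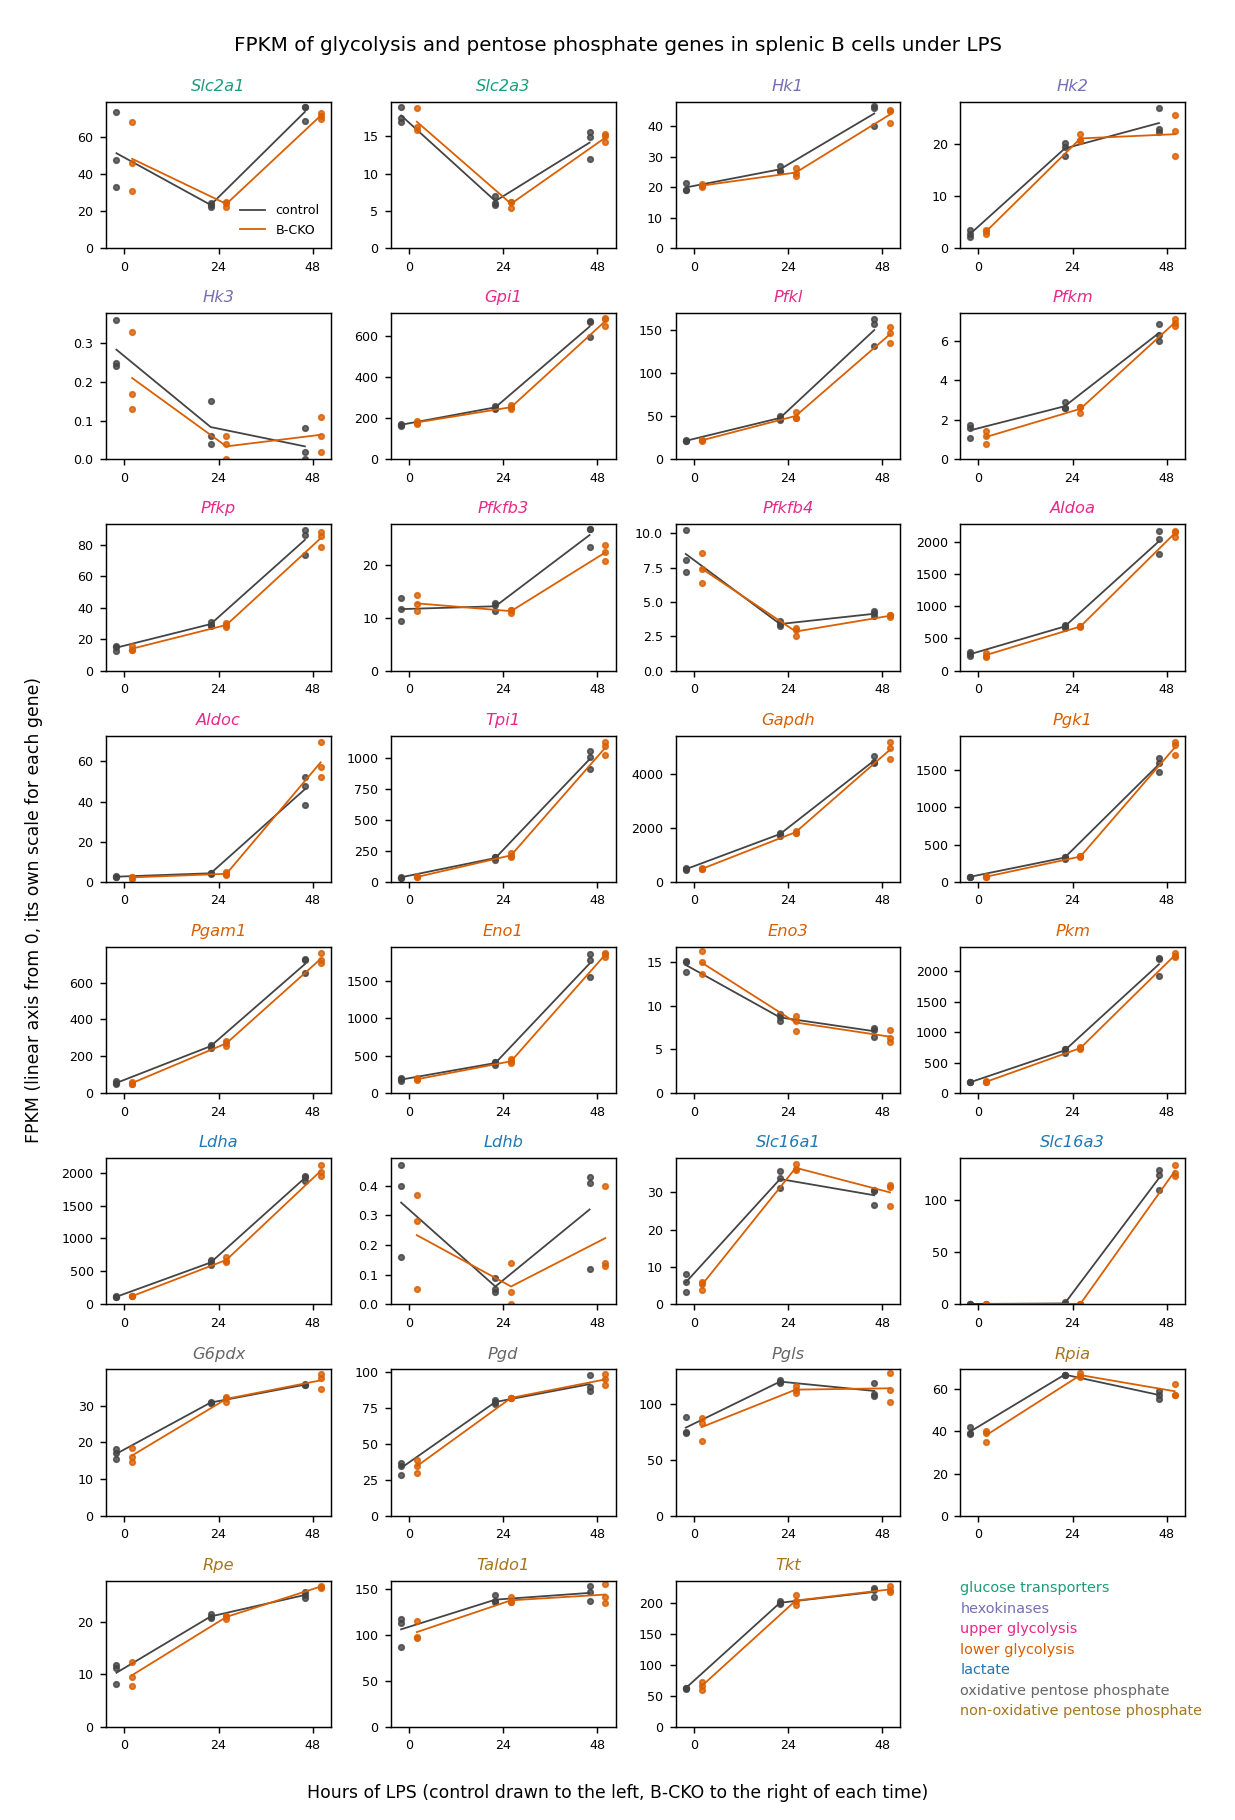
FPKM of the 31 genes (vertical axis, linear from 0, its own scale in each panel) against hours of LPS (horizontal axis), with a point for each of the 18 libraries and lines through the means of 3, control in grey and B-CKO in orange; the colour of a name gives its step of the pathway. *Slc2a1*, *Slc2a3* and *Pfkfb4* fall by 24 h, most glycolytic genes rise further after 24 h than before it in FPKM, the pentose phosphate genes level off at 24 h, and the 2 genotypes run side by side.

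Glucose enters lymphocytes mainly through *Slc2a1* (GLUT1) and *Slc2a3* (GLUT3), and both genes fell by 24 h and rose again by 48 h. *Slc2a1* was at 32.8, 47.5 and 73.3 FPKM in the 3 control libraries at 0 h, at 23.2, 24.3 and 22.3 at 24 h, then at 68.4, 76.3 and 76 at 48 h. The libraries at 0 h spread more than those at later times, and all of them lay above all libraries at 24 h. The fall was 1.03 ± 0.27 on the log2 scale (SE, adjusted p = 0.017) and the second-day rise 1.62 ± 0.053 (adjusted p = 1.3e-05). The call of the fall was lost under 4 of 13 alternatives: without the control library 2 at 0 h the difference was -1.04 with an adjusted p of 0.0666, and without a library at 24 h the adjusted p lay between 0.0609 and 0.0701. B-CKO cells at 0 h had 30.6, 45.7 and 68.3 FPKM in libraries 1, 2 and 3, each near the control value with the same number. At 24 h they had 24.4, 22.4 and 24.6 and at 48 h 73, 71.5 and 69.9 FPKM. *Slc2a3* went from 19, 17 and 17.5 FPKM in control cells at 0 h to 5.84, 6.08 and 7.03 at 24 h, then 12, 14.9 and 15.6 at 48 h. The 3 groups did not overlap, the fall was 1.36 ± 0.094 (adjusted p = 5.6e-05) and the rise 1.05 ± 0.11 (adjusted p = 0.0004). Neither gene differed between 0 h and 48 h at the threshold, with adjusted p = 0.107 for *Slc2a1* and 0.0517 for *Slc2a3*, yet without control library 3 at 0 h *Slc2a1* was higher at 48 h by 0.88 (adjusted p = 0.012). For *Slc2a3* the difference of -0.32 ± 0.11 was called lower under 5 of 13 alternatives, with adjusted p from 0.00805 after rescaling to TPM to 0.0483 with a pseudocount of 0.1.

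Hexokinases phosphorylate glucose and so keep it in the cell. *Hk2*, the inducible form, was at 2.12, 2.65 and 3.57 FPKM in control cells at 0 h, at 17.8, 20.4 and 19.5 at 24 h, then at 22.9, 27 and 22.4 at 48 h. Nearly all of its rise fell in the first interval, 2.43 ± 0.15 (SE, adjusted p = 4.1e-05) or 6.91-fold in mean FPKM, against 0.31 ± 0.081 in the second (adjusted p = 0.0185). This later step passed the threshold in control cells and was 0.04 ± 0.12 in B-CKO cells (adjusted p = 0.829), and the difference between the genotypes in that step did not pass it (adjusted p = 0.763). Without control library 1 at 24 h the step of the control cells was 0.26 with an adjusted p of 0.0843, and without library 3 at 24 h 0.32 with 0.0711. *Hk1*, the constitutive form, rose in smaller steps, from 21.4, 19.2 and 19.2 FPKM to 25.4, 25.4 and 26.8 at 24 h, then 40.1, 46.7 and 45.9 at 48 h, with a larger step in the second interval (0.75 ± 0.062, adjusted p = 0.00016). *Hk3*, a form of myeloid cells, was at 0.36 FPKM or less in all 18 libraries. It read 0.24, 0.25 and 0.36 FPKM in control cells at 0 h and 0.06, 0.15 and 0.04 at 24 h (adjusted p = 0.008 for the fall), a change at levels where single fragments can matter.

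The steps from glucose 6-phosphate to the triose phosphates rose together in both intervals, apart from the regulators *Pfkfb3* and *Pfkfb4* in the first. *Gpi1*, the isomerase at the branch to the pentose phosphates, went from 167 ± 4.04 FPKM to 252 ± 7.85 and 643 ± 44 in control cells (SD, n = 3). Phosphofructokinase, the committed step, is made from 3 genes. Its liver form *Pfkl* had 21.9, 21.3 and 20.9 FPKM at 0 h, 45.9, 49.8 and 48.1 at 24 h, then 131, 163 and 156 at 48 h. The platelet form *Pfkp* had 15.8, 12.5 and 15.2 FPKM at 0 h, 28.6, 30.9 and 29 at 24 h, then 73.6, 89 and 86.3 at 48 h. Both rose in each interval without overlap, by 1.13 ± 0.056 and 1.62 ± 0.082 for *Pfkl* and by 0.98 ± 0.098 and 1.46 ± 0.074 for *Pfkp*. The muscle form *Pfkm* stayed low, at 1.59, 1.08 and 1.73 FPKM at 0 h and 6.0, 6.85 and 6.31 at 48 h, although it rose as well (0.59 ± 0.12 and 1.00 ± 0.072). *Pfkfb3* and *Pfkfb4* make and break fructose 2,6-bisphosphate, an activator of phosphofructokinase, and went separate ways. *Pfkfb3* read 13.8, 11.8 and 9.5 FPKM at 0 h and 11.4, 12.8 and 12.5 at 24 h, which overlap (0.07 ± 0.14, adjusted p = 0.672), and then 23.6, 26.9 and 27 at 48 h (1.02 ± 0.068, adjusted p = 8.0e-05). *Pfkfb4* fell from 10.3, 8.05 and 7.15 to 3.58, 3.22 and 3.36 FPKM by 24 h (-1.10 ± 0.14, adjusted p = 0.00073), and at 48 h, with 3.94, 4.3 and 4.16 FPKM, it was still below its level at 0 h in all 3 libraries. Its rise after 24 h, 0.23 ± 0.065 (adjusted p = 0.0275), did not pass without library 2 or 3 at 24 h or at 48 h, where it lay between 0.20 and 0.22 with adjusted p from 0.06 to 0.0741.

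*Aldoa*, the main aldolase, which cleaves fructose 1,6-bisphosphate, had 281, 253 and 234 FPKM in control cells at 0 h, 659, 706 and 693 at 24 h, then 1809, 2051 and 2179 at 48 h, steps of 1.42 ± 0.08 and 1.55 ± 0.078. *Aldoc*, a form best known from brain, was low, with 2.61, 2.17 and 2.81 FPKM at 0 h and 4.22, 4.58 and 3.89 at 24 h, and then reached 38.4, 47.8 and 52.4 at 48 h. That second step, 3.16 ± 0.11 (adjusted p = 1.5e-05), was 10.9-fold in mean FPKM, whereas the first was 0.57 ± 0.11 (adjusted p = 0.0053). *Tpi1*, which interconverts the triose phosphates, rose more over the whole time than any other member above 10 FPKM at 0 h, from 41, 33.7 and 33.5 FPKM to 175, 202 and 196 at 24 h, then 909.8, 1003 and 1049.6 at 48 h. Its steps were of one size, 2.38 ± 0.099 and 2.36 ± 0.073, and the mean at 48 h was 27.4-fold that at 0 h.

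*Gapdh* was the most abundant of the 31 genes at every time, and most genes of lower glycolysis rose in both intervals. *Gapdh*, the dehydrogenase of the first oxidation step, had 469.9, 500.2 and 431 FPKM in control cells at 0 h, 1709.8, 1833 and 1788 at 24 h, then 4472, 4409.9 and 4667 at 48 h. It rose by 1.93 ± 0.076 and 1.35 ± 0.069 (adjusted p = 9.2e-06 and 3.7e-05), 9.67-fold over the whole time, with no overlap between times. *Gapdh* served as the internal reference of the study's quantitative PCR of *Zbtb24*, which compared genotypes and not times of LPS. *Pgk1*, the first ATP-making step, went from 66.2, 69 and 67.7 at 0 h to 309, 336 and 331 at 24 h, then 1472, 1596 and 1668 FPKM at 48 h, steps of 2.25 ± 0.053 and 2.27 ± 0.061, and its mean at 48 h was 23.4-fold that at 0 h. *Pgam1*, the mutase, rose from 54.9 ± 7.5 to 255 ± 9.77 and 701 ± 43.8 FPKM (SD, n = 3), the larger step coming first (2.20 ± 0.10 against 1.46 ± 0.056). For *Eno1*, the main enolase, the larger step came later, with 201, 183 and 156 FPKM at 0 h, 374, 415 and 418 at 24 h, then 1561, 1788 and 1865 at 48 h (1.16 ± 0.10 and 2.10 ± 0.081). *Pkm*, the pyruvate kinase gene, rose from 179 ± 4.12 to 701 ± 37.7 and 2118 ± 161 FPKM, and its M1 and M2 splice forms are not separated in the table. *Eno3*, the muscle enolase, was the exception: it fell from 15, 13.9 and 15.2 FPKM at 0 h to 9.04, 8.28 and 8.71 at 24 h (-0.70 ± 0.076, adjusted p = 0.00038) and read 7.51, 6.48 and 7.29 at 48 h. Its later fall, 0.26 in control cells (adjusted p = 0.0187), had an adjusted p of 0.0724 without library 1 and 0.0666 without library 3 at 24 h. *Gapdh*, *Pgk1*, *Tpi1*, *Pgam1*, *Eno1*, *Aldoa* and *Ldha* have processed copies elsewhere in the mouse genome, and how reads shared with those were assigned is not given in the sources used here, so these levels are uncertain to that extent.

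The lactate carriers changed in composition, whereas *Ldha* held at least 99.7% of mean lactate dehydrogenase FPKM in control cells at every time. *Ldha*, which favours lactate, had 118, 118 and 106 FPKM in control cells at 0 h, 600.3, 668 and 636 at 24 h, then 1868, 1955 and 1938 at 48 h, rises of 2.47 ± 0.069 and 1.60 ± 0.056 (adjusted p = 5.4e-06 and 1.4e-05). *Ldhb*, which favours pyruvate, was at 0.47 FPKM or less in all 18 libraries, so nearly all lactate dehydrogenase transcripts were *Ldha* at every time. Its calls in control cells, -0.33 by 24 h and 0.31 after it, were each lost on leaving out any of 5 of the 6 libraries (adjusted p up to 0.0756 and 0.134), all but library 2 at 0 h in the first and library 1 at 48 h in the second interval. *Slc16a1* (MCT1), a carrier that works in either direction, rose early, from 3.31, 6.09 and 8.22 FPKM at 0 h to 31.2, 33.8 and 35.7 at 24 h (2.40 ± 0.27, adjusted p = 0.00043), and read 30.7, 30.5 and 26.5 at 48 h (-0.19 ± 0.071, adjusted p = 0.065). This last step of the control cells was called lower under 3 of 13 alternatives. In B-CKO cells the last step, from 36.1, 37.5 and 36.2 to 32.1, 31.5 and 26.5 FPKM, passed the threshold (-0.28 ± 0.073, adjusted p = 0.0169), but not without any of the libraries at 24 h (adjusted p from 0.0647 to 0.0855). The test of a difference between the genotypes in this step had an adjusted p of 0.882. *Slc16a3* (MCT4), the lactate exporter of glycolytic tissue, was near 0 until 24 h and then rose more than any other of the 31 genes. It had 0.45, 0.25 and 0.21 FPKM in control cells at 0 h, 0.18, 1.75 and 0.39 at 24 h, then 109.8, 124 and 129 at 48 h. In B-CKO cells the values were 0.24, 0.23 and 0.37 FPKM at 0 h, 0.24, 0.29 and 0.69 at 24 h, then 133, 126 and 123 at 48 h. Every library at 48 h stood above 100 FPKM and every earlier one under 2, and the second step was 6.20 ± 0.30 in control cells (adjusted p = 3.2e-05) and 6.53 ± 0.12 in B-CKO cells (adjusted p = 1.1e-06).

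All 7 pentose phosphate genes rose in the first interval and changed by at most 0.25 on the log2 scale in the second in control cells. *G6pdx*, the glucose 6-phosphate dehydrogenase that commits glucose to the oxidative arm, had 18.1, 17.2 and 15.3 FPKM at 0 h, 30.8, 31 and 30.8 at 24 h, then 35.7, 35.8 and 35.7 at 48 h, steps of 0.84 ± 0.074 and 0.21 ± 0.026 (adjusted p = 0.00016 and 0.00091). *Pgls*, the lactonase that follows, went from 87.8, 73.6 and 74.2 to 119.7, 118 and 121 FPKM (0.61 ± 0.078, adjusted p = 0.00079), and then 118, 107 and 109 (-0.10 ± 0.042, adjusted p = 0.0845). *Pgd*, the second NADPH-making enzyme, had 36.9, 34.6 and 27.9 FPKM at 0 h, 77.8, 79 and 80.6 at 24 h, then 89.9, 98.3 and 86.5 at 48 h. Its first step was 1.24 ± 0.11 (adjusted p = 0.00013), and the second, 0.21 ± 0.049, had an adjusted p of 0.0131 but 0.0653 without library 1 and 0.0595 without library 2 at 24 h. *Tkt*, transketolase, moved most of the non-oxidative genes, from 63.2, 63.5 and 61.5 FPKM to 201, 203 and 199 at 24 h (1.67 ± 0.043, adjusted p = 5.2e-06). At 48 h it read 224, 222 and 209.9, a step of 0.12 ± 0.035 whose adjusted p of 0.0294 rose to between 0.0631 and 0.0875 without a library at 24 h or without library 1 or 2 at 48 h. In B-CKO cells this step of 0.12 ± 0.042 had an adjusted p of 0.049, and 0.102 under the block of numbers. Their libraries with the same number were only weakly correlated between 24 h and 48 h, at 0.117 to 0.183. The call was lost under 10 of 13 alternatives, among them leaving out any library but number 3 at 24 h. *Rpia*, the ribose 5-phosphate isomerase, overshot, with 42.3, 38.7 and 39.2 FPKM at 0 h, 67.1, 67 and 67.1 at 24 h, then 59.4, 55.6 and 57.2 at 48 h. It rose by 0.73 ± 0.054 and fell by 0.22 ± 0.032 (adjusted p = 7.2e-05 and 0.0015). *Rpe*, the epimerase, rose from 10.3 ± 1.93 to 21 ± 0.35 and 25.1 ± 0.51 FPKM (SD, n = 3). *Taldo1*, transaldolase, moved least: 117, 113 and 87.1 FPKM at 0 h, 143, 136 and 135 at 24 h, then 153, 137 and 146 at 48 h, a first step of 0.39 ± 0.12 (adjusted p = 0.0278) that did not pass without library 2 at 0 h or any library at 24 h (0.0532 to 0.1).

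**Figure D2:**
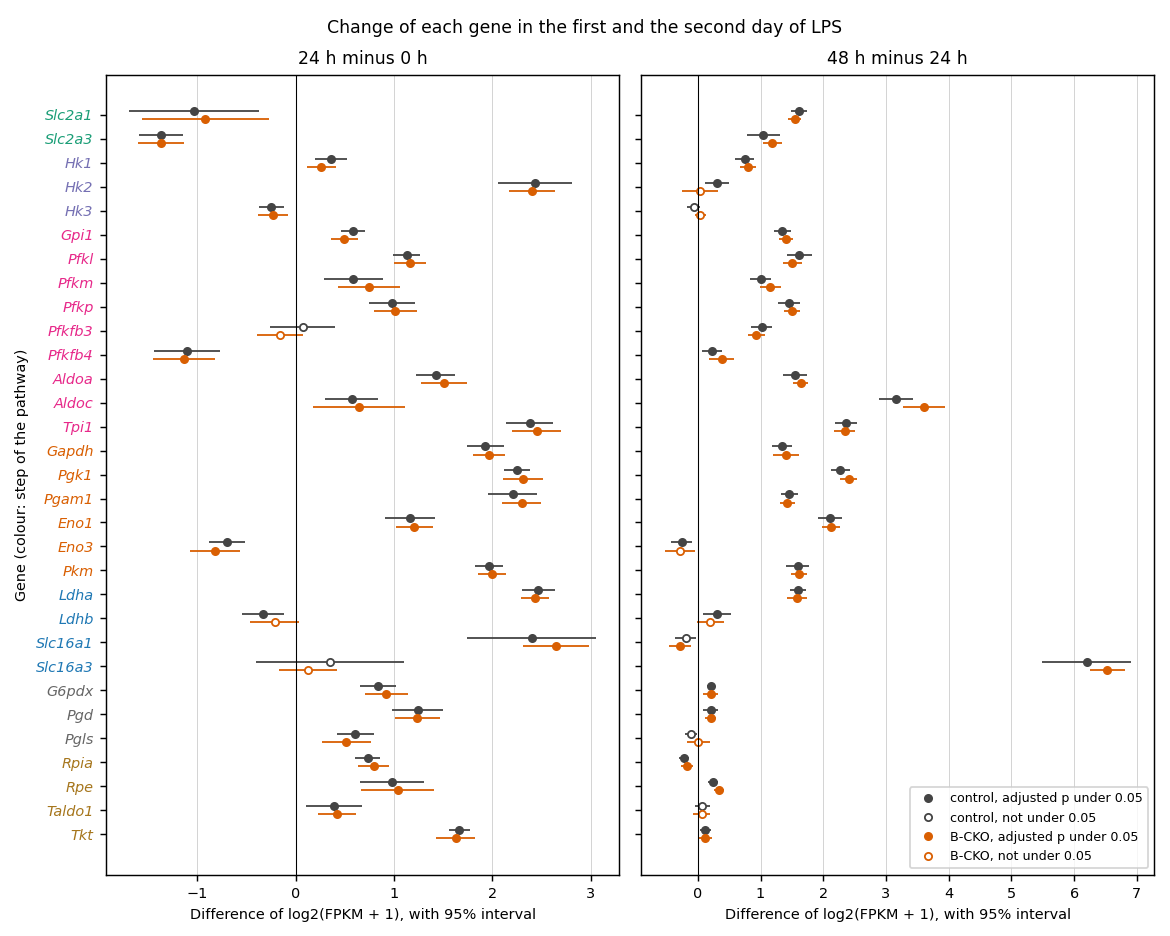
Difference of log2(FPKM + 1) of each gene (rows) from 0 h to 24 h (left) and from 24 h to 48 h (right, wider axis), with the 95% interval of limma; filled points have an adjusted p under 0.05, grey is control and orange B-CKO, n = 3 libraries in each group. In the right panel *Aldoa*, *Tpi1*, *Gapdh*, *Pgk1*, *Eno1*, *Pkm* and *Ldha* lie between 1.35 and 2.41 and *Slc16a3* lies beyond 6, while the 7 pentose phosphate genes sit within 0.34 of 0.

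Most of the rise of the pentose phosphate genes fell in the first interval, and that of upper glycolysis in the second. Among genes that were higher at 48 h than at 0 h in control cells, the median share of the log2 rise already reached at 24 h was 85.7% for the 3 oxidative and 88.8% for the 4 non-oxidative pentose phosphate genes. For 5 genes of lower glycolysis it was 55.3%, ranging from 35.5% for *Eno1* to 60.2% for *Pgam1*, and for 8 genes of upper glycolysis 38.6%, ranging from 6.68% for *Pfkfb3* to 50.1% for *Tpi1*. B-CKO cells gave 85.7%, 90.1%, 55.3% and 39.8% for the same roles. *Hk2* had reached 88.7% and *Slc16a1* 108.8% by 24 h, like the pentose phosphate genes, and *Slc16a3* 5.3% and *Aldoc* 15.2%. These shares describe the means and were not tested between roles. The small second steps were the least settled calls: with all 18 libraries in one fit those of *Hk2*, *Pfkfb4*, *Pgd* and *Tkt* in control cells had adjusted p between 0.112 and 0.16.

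B-CKO cells followed in the same direction for every call of these intervals that both genotypes made. *Gapdh* read 505, 459 and 457 FPKM at 0 h, 1829.8, 1887 and 1831 at 24 h, then 4969.6, 4576 and 5204 at 48 h. *Ldha* read 126, 123 and 122 FPKM at 0 h, 649, 653 and 719 at 24 h, then 2121, 2015 and 1942 at 48 h. *Pgk1* read 76.3, 62.6 and 64.9 FPKM at 0 h, 329, 341 and 348 at 24 h, then 1875, 1702 and 1833 at 48 h, with steps of 2.31 ± 0.082 and 2.40 ± 0.055. Among the genes of the early course, *Hk2* had 2.74, 3.37 and 3.51 FPKM at 0 h, 20.8, 22 and 20.6 at 24 h, then 22.5, 25.7 and 17.7 at 48 h. *Tkt* had 72.6, 59.3 and 65.5 FPKM at 0 h, 197, 204 and 213 at 24 h, then 229, 218 and 222 at 48 h. For *G6pdx* the values were 18.5, 16 and 14.7 FPKM at 0 h, 32.3, 31.1 and 32.1 at 24 h, then 38.7, 37.6 and 34.5 at 48 h, with a first step of 0.92 ± 0.09 (adjusted p = 0.00018) and a second of 0.21 ± 0.049 (adjusted p = 0.0128, and 0.0623 without library 2 at 24 h). The calls that only 1 genotype passed were the fall of *Ldhb* by 24 h and, after it, those of *Hk2*, *Eno3*, *Ldhb* and *Slc16a1*, of which only *Slc16a1* was a call of the B-CKO cells. *Eno3* after 24 h differed by -0.29 ± 0.10 in B-CKO cells (adjusted p = 0.0594), against -0.26 ± 0.067 in control cells. In B-CKO cells this fall of *Eno3* was called under 6 of 13 alternatives. None of these 5 passed the test of the difference between genotypes, whose adjusted p for the 24 h to 48 h change was 0.97 for *Eno3* and 0.897 for *Ldhb*.

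Families with several genes kept or changed their make-up. *Hk2* made up 12.1% ± 3.25 of hexokinase FPKM in control cells at 0 h, 42.5% ± 1.66 at 24 h and 35.3% ± 2.14 at 48 h (SD, n = 3), with no overlap between 0 h and the later times. *Slc16a3* held 6.13% ± 5.10, 2.19% ± 2.38 and 80.4% ± 2.39 of the FPKM of the lactate carriers. *Slc2a1* held 72.6% ± 8.77 of the FPKM of the glucose transporters at 0 h and 83.9% ± 1.11 at 48 h. *Pfkl* took 57.3% ± 3.22, 59.8% ± 0.272 and 62.6% ± 0.40 of phosphofructokinase FPKM. *Eno3* dropped from 7.62% ± 1.08 of enolase FPKM to 0.41% ± 0.0614, while *Aldoc*, for all its rise, was 2.23% ± 0.139 of aldolase FPKM at 48 h.

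**Figure D3:**
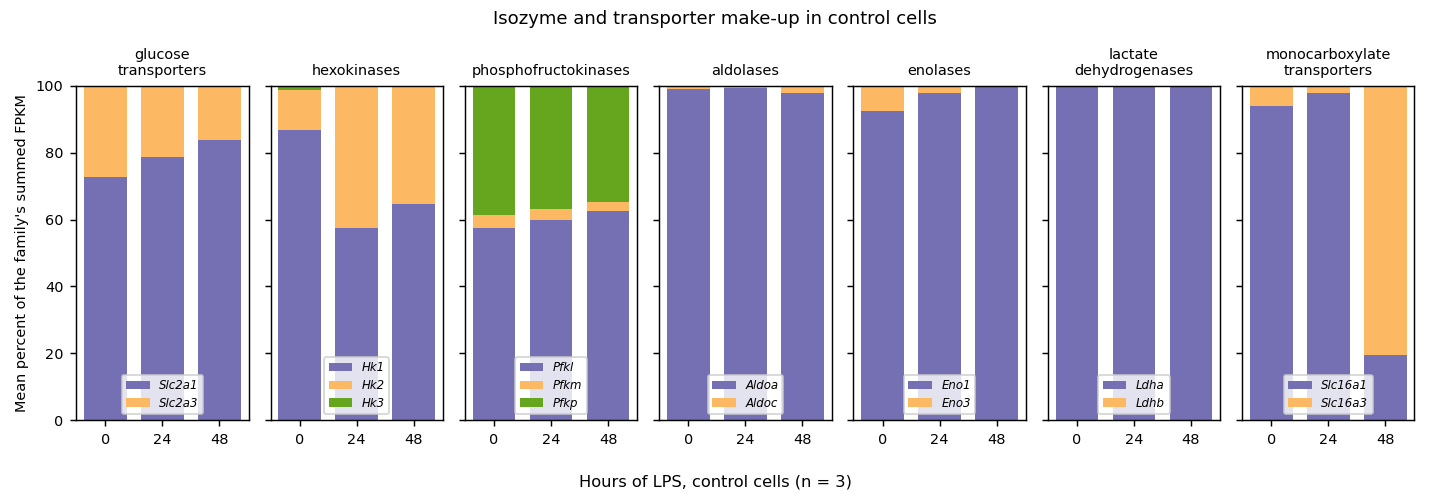
Mean percent of a family's summed FPKM (vertical axis, 0 to 100) taken by each of its genes in control cells at 0, 24 and 48 h of LPS (n = 3 libraries each). *Hk2* grows from 12.1% to 42.5% of the hexokinases by 24 h, and *Slc16a3* from 2.19% to 80.4% of the monocarboxylate carriers between 24 h and 48 h.

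Of 45 other genes of the same pathways, 43 were in the table, and *Fbp1* and *Fbp2* had no row there. In control cells 10 of 42 tested rose and 10 fell by 24 h, and 10 of 41 rose and 9 fell after it, with medians of -0.02 and 0.0095. Of all genes 26.7% rose and 30.7% fell in the first interval and 20.1% and 24.8% in the second, so the counts of this wider list lay near the background. Without control library 2 at 24 h 6 rose and 9 fell in the second interval. *Gpd1l*, a glycerol 3-phosphate dehydrogenase-like gene, fell from 56.8, 51.3 and 51.5 to 18.5, 18 and 18 FPKM (-1.50 ± 0.061, adjusted p = 9.8e-06). *Pgam2*, the muscle mutase, fell from 7.54, 8.38 and 9.36 to 1.54, 0.99 and 1.48 FPKM (-2.02 ± 0.14). *Slc16a7* (MCT2), the high-affinity carrier, fell from 3.79, 3.16 and 3.71 to 0.99, 0.63 and 0.74 FPKM (-1.35 ± 0.11). *Prps1*, which makes phosphoribosyl pyrophosphate from ribose 5-phosphate, rose from 17.8, 21 and 23.9 to 53.5, 56.4 and 52.6 FPKM (1.34 ± 0.11, adjusted p = 0.00011) and fell to 41.1, 42 and 39.9 at 48 h (-0.39 ± 0.037), up and then down like *Rpia*. *Pgm2* rose by 1.26 ± 0.087. These 5 had the smallest adjusted p in the first interval. *Pgm1* and *Bsg* were picked after their values had been seen. *Pgm1*, the phosphoglucomutase that links glycogen to glycolysis, had 14.6, 15.7 and 14.5 FPKM at 24 h, then 58.4, 69.9 and 74.2 at 48 h (2.10 ± 0.087, adjusted p = 2.2e-05). *Bsg*, basigin, the chaperone of the carriers MCT1 and MCT4, rose from 70.4, 71.1 and 56.5 FPKM at 0 h to 109, 119.7 and 116 at 24 h, then 200.5, 224 and 245 at 48 h (0.80 ± 0.10 and 0.95 ± 0.075).

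Since several of these genes are known HIF1 targets, *Hif1a* and known targets outside glycolysis, 18 genes in all, were read as well. From 0 h to 24 h 4 of them rose and 5 fell in control cells, with a median difference of -0.07, where 26.7% of all genes rose and 30.7% fell. From 24 h to 48 h 15 rose and 1, *Hif1a* itself, fell, with a median of 1.90, and in B-CKO cells 15 rose and 2, *Hif1a* and *Car12*, fell with a median of 1.96. Leaving out any one B-CKO library at 24 h left 15 rises and 1 fall. The shares of all genes that rose and fell in this interval were 20.1% and 24.8% in control and 21.7% and 24% in B-CKO cells. The genes named here were picked after their values had been seen. *Bnip3*, a mitophagy receptor, had 6.73, 5.18 and 4.54 FPKM in control cells at 0 h, 5.52, 7.01 and 5.63 at 24 h, then 98.9, 123 and 124 at 48 h (4.04 ± 0.11, adjusted p = 9.7e-06). *Egln3*, a prolyl hydroxylase that marks HIF for degradation, went from 0.22, 0.32 and 0.12 FPKM at 24 h to 14.1, 15.9 and 15.8 at 48 h (3.74 ± 0.087). *Ankrd37* went from 3.7, 6.3 and 4.72 to 115, 125 and 126 FPKM (4.41 ± 0.15). All of these lay apart between 24 h and 48 h, with the low state at 24 h that *Slc16a3* and *Aldoc* also had. *Vegfa*, the angiogenic factor, read 2.41, 5.97 and 8.93 FPKM at 0 h, 1.46, 1.68 and 1.42 at 24 h, then 7.82, 8.46 and 9.5 at 48 h, high, low and high like *Slc2a1*. At 0 h its libraries stood in the same order as those of *Slc2a1*. *Car9* stayed at 0.42 FPKM or less in every library and did not pass the test. *Hif1a* itself read 21.8, 20.7 and 21.8 FPKM at 24 h, then 17.5, 16.1 and 16.1 at 48 h (-0.35 ± 0.046, adjusted p = 0.0011). Oxygen and cell density in the cultures are not given in the sources used here. The part of HIF1 or of MYC in these changes was not tested.

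**Figure D4:**
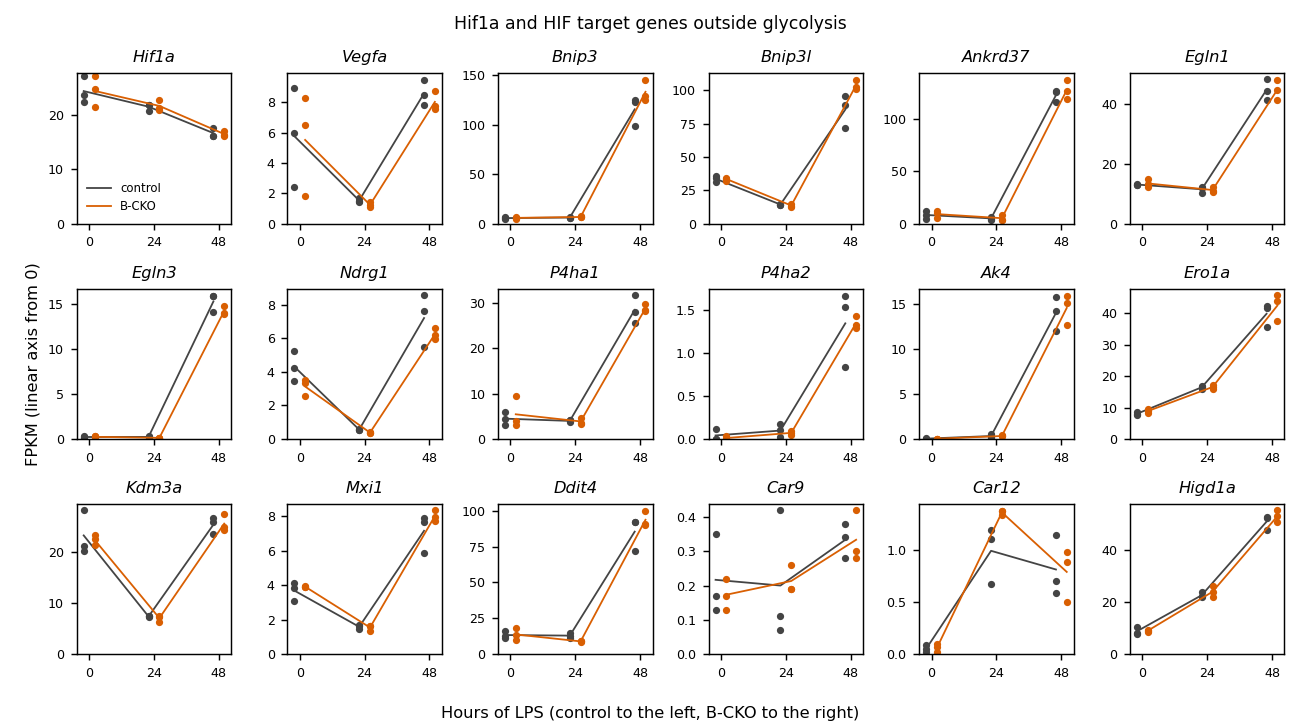
FPKM (vertical axis, linear from 0) of *Hif1a* and known HIF target genes outside glycolysis against hours of LPS, with a point for each library, lines through the means of 3, control in grey and B-CKO in orange. 15 of the 18 genes rise after 24 h in each genotype, *Hif1a* falls, and *Vegfa*, *Bnip3l*, *Ndrg1*, *Kdm3a* and *Mxi1* dip at 24 h first.

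The promoters of the 4 genes with the largest second-day rise in control cells among those with a RefSeq promoter (GRCm38.p6, the build the files use as mm10) are shown to give the sequence before them, 160 bases up to the start site. *Ldha* was added after its matches had been seen. RefSeq windows from 250 bases before to 50 after a start were found for 30 of the 31 genes, and *Slc2a3* had none. Each window was searched on both strands for ACGTG, the core letters of a hypoxia response element, and for CACGTG, the E-box of MYC and other factors, which holds ACGTG on both strands. Capitals mark ACGTG or its reverse complement CACGT.
Slc16a3: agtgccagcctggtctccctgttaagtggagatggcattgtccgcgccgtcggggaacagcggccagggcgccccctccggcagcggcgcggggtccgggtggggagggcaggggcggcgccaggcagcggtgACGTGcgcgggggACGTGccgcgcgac
Aldoc: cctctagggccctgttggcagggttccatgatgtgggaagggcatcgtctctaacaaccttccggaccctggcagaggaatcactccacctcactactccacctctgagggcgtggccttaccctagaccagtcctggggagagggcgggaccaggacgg
Tpi1: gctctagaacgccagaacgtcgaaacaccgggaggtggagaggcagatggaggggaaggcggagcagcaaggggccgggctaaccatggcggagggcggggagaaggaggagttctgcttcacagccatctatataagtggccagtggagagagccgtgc
Pgk1: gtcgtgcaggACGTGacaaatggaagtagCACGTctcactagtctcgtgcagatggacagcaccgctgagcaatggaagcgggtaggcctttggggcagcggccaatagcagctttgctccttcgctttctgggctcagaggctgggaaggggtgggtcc
Ldha: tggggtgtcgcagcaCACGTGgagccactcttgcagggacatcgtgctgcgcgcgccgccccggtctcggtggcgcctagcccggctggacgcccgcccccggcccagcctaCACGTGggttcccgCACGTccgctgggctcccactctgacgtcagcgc
They lie at chr11:120948907-120949066, plus strand for *Slc16a3*, chr11:78322913-78323072, plus strand for *Aldoc*, chr6:124814159-124814318, minus strand for *Tpi1*, chrX:106186940-106187099, plus strand for *Pgk1* and chr7:46845644-46845803, plus strand for *Ldha*, and the sequences run 5′ to 3′ on the strand of the gene. Of the starts listed for *Slc16a3* and *Ldha*, the ones shown lie inside the annotated gene spans (chr11:120948484-120959000 and chr7:46842274-46855627). The first base of a match stood at -27 and -14 from this start in *Slc16a3*, at -150 and -131 in *Pgk1*, and in *Ldha* at -145 and -48, both as CACGTG, and at -34. The shown stretches of *Aldoc* and *Tpi1* held none, though a searched window of *Aldoc* held ACGTG outside the shown stretch. Over all 32851 mouse windows 19.6% held ACGTG, against 19 of 43 windows (44.2%) of these genes, from 16 of the 30 genes. For CACGTG the shares were 7.15% of all windows and 4 of 43 (9.3%), those of *Pfkm*, *Pfkfb3*, *Ldha* and *Slc16a1*. Windows of one gene can overlap, and base composition was not matched, so these are counts of letters and say nothing of binding.

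Between genotypes the 31 genes were compared to see whether loss of *Zbtb24* touches this programme in splenic B cells. In these cells limma called none of them at any time. For LPS-stimulated B1 cells of the peritoneum, which are not among these libraries, the study reports *Slc2a1*, *Slc16a3*, *Pfkl* and *Tpi1* as higher without *Zbtb24*. At 0 h 0 of 31 had an adjusted p under 0.05 and 0 an unadjusted p under 0.05, where 0.0% of all 15641 genes were called and 2.00% had an unadjusted p under 0.05. At 24 h 0 were called (0.0993% of all genes), and 4 had an unadjusted p under 0.05, against 16.3% of all genes. Among genes with a mean of 1 FPKM or more, 92 were called higher and 296 lower at 24 h, and still 0 members. At 48 h 0 were called (0.046%), and 2 had an unadjusted p under 0.05, against 7.71%. The lowest and highest differences of B-CKO from control were -0.21 and 0.17 in resting cells, -0.25 and 0.16 on the first day and -0.19 and 0.36 on the second, with medians of -0.0085, -0.00047 and 0.044. The intervals set the limits: at 24 h the 95% interval was -0.05 to 0.17 for *Gapdh*, -0.05 to 0.22 for *Ldha*, -0.06 to 0.11 for *Tkt* and -0.08 to 0.14 for *Slc2a1*. At 0 h they were wider, -0.20 to 0.25 for *Gapdh* and -0.99 to 0.82 for *Slc2a1*. With the library number as a block, which pairs the genotypes at this time, the interval of *Slc2a1* narrowed to -0.19 to 0.02 around a difference of -0.08 (adjusted p = 0.867), and that of *Gapdh* was -0.17 to 0.21.

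All 3 B-CKO libraries lay above all 3 control libraries for 2 of the 31 genes at 0 h (*Gpi1* and *Ldha*) and below them for 0, against 1.92% and 1.94% of all genes. At 24 h 4 lay above (*Hk2*, *Slc16a1*, *G6pdx* and *Pgd*) and 2 below (*Pfkfb4* and *Pgls*), against 8.43% and 11.7% of all genes. At 48 h 3 lay above (*Pgk1*, *Pkm* and *Rpe*) and 0 below, against 4.89% and 6.24%. The smallest adjusted p of any of them was 0.182, for *Pgls* at 24 h, with 116, 112 and 109.7 FPKM in B-CKO and 119.7, 118 and 121 in control cells (-0.09 ± 0.027). *Pgk1* at 48 h had 1875, 1702 and 1833 FPKM in B-CKO and 1472, 1596 and 1668 in control cells, 0.19 ± 0.084 (adjusted p = 0.659). The largest difference was that of *Aldoc* at 48 h, 57.1, 52.1 and 69.5 FPKM in B-CKO against 38.4, 47.8 and 52.4 in control cells. These overlap by a narrow margin, and the difference of 0.36 ± 0.14 had an adjusted p of 0.601.

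The changes over time were compared as well, in a fit of the 12 libraries of each pair of times. By limma no member passed the threshold for a difference between genotypes in its change from 0 h to 24 h (0 of 31 called, 0 with an unadjusted p under 0.05 against 2.89% of all genes) or from 24 h to 48 h (0 called, 2 with an unadjusted p under 0.05, *Aldoc* and *Rpe*, against 7.31% of all genes), and of all genes 0.0% did in both. The change of *Slc16a3* after 24 h differed by 0.32 ± 0.36, with an interval of -0.46 to 1.11, and that of *Gapdh* by 0.06 ± 0.10, with -0.16 to 0.28.

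**Figure D5:**
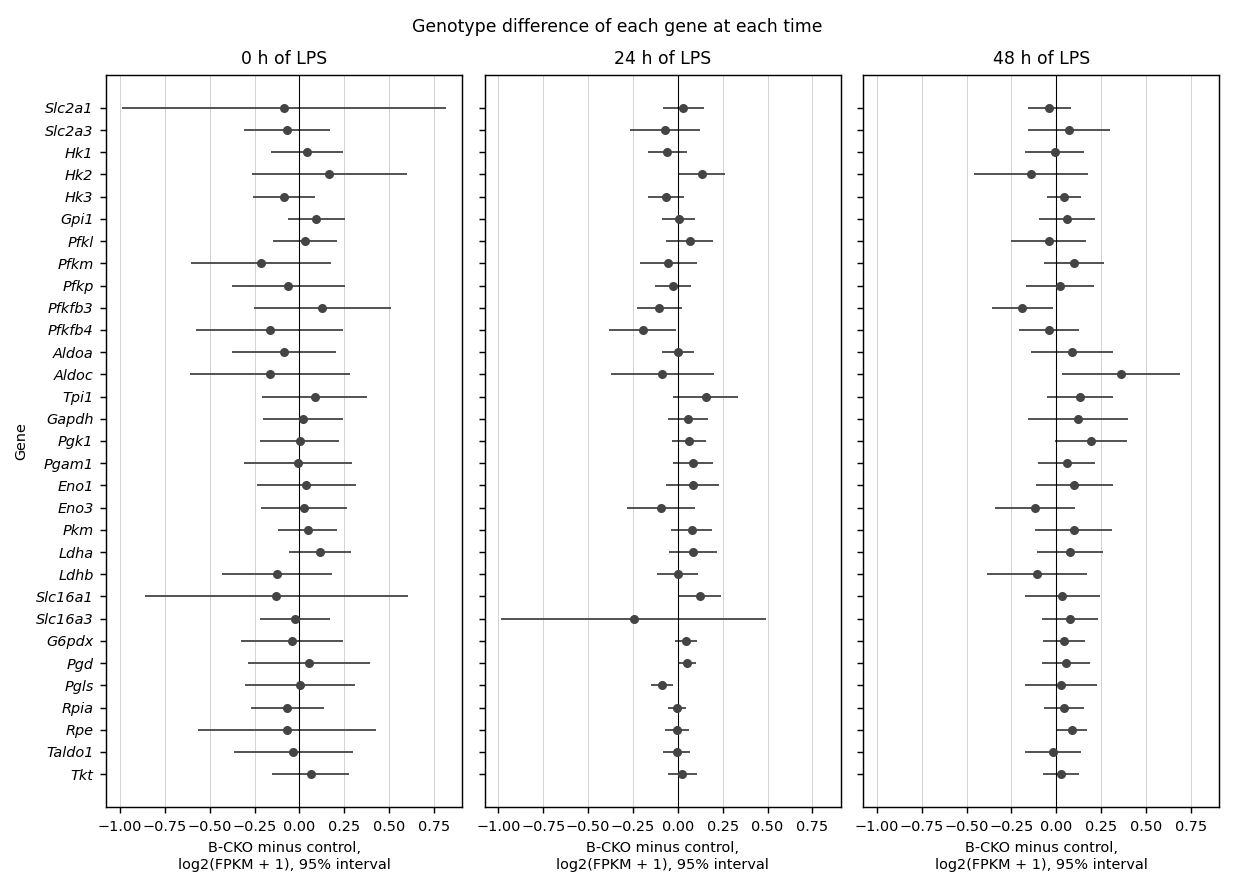
B-CKO minus control difference of log2(FPKM + 1) with its 95% interval from limma for each gene (rows) at 0, 24 and 48 h of LPS, 3 libraries per genotype, all panels on one axis. Points lie between -0.25 and 0.36, the intervals are widest at 0 h and for *Slc16a3* at 24 h, and no gene passes an adjusted p of 0.05.

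At 0 h libraries with the same number deviated together across the genotypes. *Slc2a1* was at 32.8, 47.5 and 73.3 FPKM in control libraries 1, 2 and 3 and at 30.6, 45.7 and 68.3 in B-CKO libraries 1, 2 and 3, so the difference within a number was small beside the difference between numbers. *Hk2*, with 2.12, 2.65 and 3.57 in control and 2.74, 3.37 and 3.51 in B-CKO, had the same order, and *Pgd* and *Rpe* the reverse one. *Pgd* read 36.9, 34.6 and 27.9 in control and 38.8, 34.4 and 29.9 in B-CKO. *Rpe* read 11.7, 11.1 and 8.09 in control and 12.4, 9.41 and 7.72 in B-CKO. *Slc16a1* did not keep one order, with 3.31, 6.09 and 8.22 in control and 3.85, 5.96 and 5.39 in B-CKO. These 5 genes were chosen after their values were seen. With the number as a block, limma called 0 of the 31 genes at 0 h, and 2, *Pfkm* and *Ldhb*, had an unadjusted p under 0.05, against 5.7% of all genes in that fit.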

How the data were processed

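The authors sorted splenic B cells, sequenced 18 libraries and deposited a single table of FPKM values with 2 decimals for 16545 genes by NCBI gene ID. Reads were aligned to mm10, the methods name Bowtie2, Cufflinks and RSEM, and the submitters' processing notes list BWA, Bowtie2, DESeq2 and RSEM, with versions not given in the sources used here. The deposited FPKM are not counts, fragment depth is unknown, and values near 0.01 are limited by rounding. The members, lists and tests were chosen with earlier results of these data known. All 31 members were named, and 18 HIF-related genes and 45 other pathway genes were summarised by counts.

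Groups followed the labels. Log2(FPKM + 1) of genes above 0 in any library was fitted with limma 3.58.1 (lmFit, eBayes with trend) in R 4.3.3 on the 6 libraries compared, or 12 for differences between genotypes in a change. P-values were two-sided and adjusted by Benjamini-Hochberg over all genes at 0.05. Code was tested on simulated data. Python 3.11.15, pandas 2.3.3 and matplotlib 3.10.9 were used for summaries and plots.

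Same-numbered libraries were correlated in their deviations from group means over genes of at least 1 FPKM on average. At 0 h the genotypes gave 0.468 to 0.854, and B-CKO cells between 24 h and 48 h 0.117 to 0.183, so numbers paired these libraries by the data. In every other comparison some pair lay at or under 0.1, and the genotypes at 24 h gave 0.091 to 0.2, which does not settle a pairing either. Alternatives were a pseudocount of 0.1, a minimum mean of 1 FPKM, TPM rescaling, median-ratio scaling, the number as a block, a single fit of 18 libraries, and leaving out each library. 16512 of the gene IDs matched RefSeq.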

Additional observations from a re-analysis of the deposited data

How the results depend on the processing

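Of 165 calls of members over the 6 comparisons of times, 142 held under every alternative tried, 23 were lost under at least one, and 0 changed sign. Most lost calls were steps under 0.4 on the log2 scale or those of *Slc2a1*, whose libraries at 0 h spread widely. Rescaling to TPM, which removes the rise of the summed FPKM with time, moved the counts over all genes. From 0 h to 48 h in control cells it gave 3437 higher and 5663 lower, against 4126 and 4729. Members lower at 48 h than at 24 h in control cells numbered 2, but 4 after rescaling to TPM, and 1 to 3 on leaving out a library. In B-CKO cells they numbered 2, but 1 with median-ratio scaling, and 0 to 3 on leaving out a library. B-CKO members lower at 24 h than at 0 h numbered 5, and 3 to 5 on leaving out a library. Under the replicate block combined with a minimum mean of 1 FPKM, 1 member, *Aldoc*, was higher in B-CKO at 48 h. Its difference was 0.36 by limma (adjusted p = 0.0438, against 0.0438 to 0.979 over its alternatives). Between the genotypes at 48 h same-numbered libraries correlated at -0.037 to 0.23, so whether the numbers pair these libraries is not settled. Between genotypes the count over all genes depended on the setting: at 24 h 15 genes were called, but 9 higher and 37 lower with a pseudocount of 0.1, and 92 higher and 296 lower among genes of at least 1 FPKM. At 48 h the counts were 7 against 12 higher and 17 lower, and at 0 h 0 against 0 higher and 2 lower. With the replicate block added to that filter, 24 h gave 208 and 496, 48 h gave 59 and 57, and 0 h gave 5 and 17. By the block alone 24 h had 5 called genes, 48 h had 3 and 0 h had 0, and leaving out a library, whichever it was, gave 3 to 6 at 24 h and 0 or 1 at 48 h and at 0 h. With the minimum mean, 2 of 13 HIF-related genes rose and 5 fell in control cells by 24 h, against 4 and 5 of 18. The replicate block alone moved no other count of members by over 1.5 times, and apart from *Tkt* in B-CKO cells and *Pfkfb4* in control cells (0.0737) after 24 h it ended no call named in the text. Without fragment counts no limit of detection can be given for *Hk3*, *Ldhb* and *Slc16a3* at 0 h.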
